A study of Mus musculus with 4 samples.

Results

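L5-Bcl6 is a layer 5 excitatory neuron subtype of the mouse ventromedial prefrontal cortex (vmPFC), and it held 270 of the 8210 excitatory neurons with a subtype and of the 20047 annotated cells. Its members were the neurons that carry this cluster name in the deposited annotation, which was built from the transcriptome, and each was joined by its cell name to its raw virus barcode counts. All 270 lay in 1 Leiden cluster and carried the layer label L5-Etv1. Bcl6, which gives the subtype its name, encodes a transcriptional repressor. Gene-level expression values were not analysed here, so the name could not be checked against Bcl6 or any other marker.

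In MERGE-seq, a retrograde virus with a target-specific barcode is taken up by axon terminals, and single-cell RNA-seq then reads the barcode together with the transcriptome of the cell body. Male C57BL/6 mice aged 8 weeks received 5 rAAV2-retro-EGFP viruses on 1 side, 1 virus in each of the agranular insular cortex (AI), dorsomedial striatum (DMS), mediodorsal thalamus (MD), basolateral amygdala (BLA) and lateral hypothalamus (LH). The prelimbic and infralimbic areas were dissected 6 weeks later. Cells of 3 mice were loaded without sorting as 1 library each, and EGFP-positive cells of 3 other mice were FAC-sorted and pooled into 1 library, so that every animal carried all 5 viruses and the FAC-sorted library does not tell its animals apart. The volume and titre of virus differed between the targets, and the counts of different barcodes are therefore not on 1 scale of projection strength.

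Layer 5 of the cortex holds intratelencephalic neurons, which send axons to other cortical areas and to the striatum on both sides, and extratelencephalic neurons, whose axons leave the telencephalon for the thalamus, hypothalamus and brainstem and can give branches to the striatum on the way. The LH, a hypothalamic area of feeding, arousal and motivated behaviour, and the MD lie outside the telencephalon. The DMS, the AI and the BLA lie within it.

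The 5 barcodes are designed tags of 15 bases behind the EGFP coding sequence, and they are shown because every target call below is a count of molecules that carry one of them. Capitals mark the positions that differ from the LH barcode, which is in lower case throughout.
AI: CTGCACCGACGcATT
DMS: GaAGGCACAgacTTT
MD: GTtGGCTGCAaTCCA
BLA: AaGAcgCCgTCGCaA
LH: tattcggaggacgac
The LH barcode differed from the DMS barcode at 11 of the 15 positions, from MD at 13, from AI at 14 and from BLA at 10, and reads were assigned with up to 2 mismatches. Of the projectome reads of L5-Bcl6 neurons, between 81.7% and 89.9% per library matched a barcode exactly. A barcode was valid, and its target counted as a projection, when more unique molecular identifiers (UMIs) were counted than a threshold of 28 (AI), 101 (DMS), 114 (MD), 35 (BLA) or 103 (LH). Calls made from these values were the same as the deposited labels for every subtyped neuron and target.

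Cells within a library are not replicates, and comparisons were made over libraries. A difference between subtypes was taken within each library and tested by flipping the signs of the 4 library differences in every way (an exact sign-flip test, two-sided), which can give no p below 0.125, or below 0.25 for the 3 unsorted mice alone. The FAC-sorted library was set against the unsorted mice by exact permutation, one-sided, where 0.25 is the lowest p. No comparison here could therefore pass 0.05, and intervals on shares are exact Clopper-Pearson 95% intervals that cover counting error only. Beside a count of 0, the limit given is the share that 3 counts of the total would make. The number of projectome reads per recovered cell was 2542.1 to 4544.2 in the unsorted mice, lowest in mouse 1, and 14638.6 in the FAC-sorted library. Of the annotated cells, 52 cell barcodes occurred in more than 1 library, 1 of them in an L5-Bcl6 neuron.

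L5-Bcl6 contributed a small share of the neurons of each library. It held 90 of the 2440 subtyped excitatory neurons of unsorted mouse 1 (3.69%, interval 2.98 to 4.51), 60 of 2146 in mouse 2 (2.80%, 2.14 to 3.58), 60 of 2119 in mouse 3 (2.83%, 2.17 to 3.63) and 60 of 1505 in the FAC-sorted library (3.99%, 3.06 to 5.10). The FAC-sorted share was 0.881 percentage points above the mean of the unsorted mice and 1 of them, mouse 1, lay close below it (exact one-sided permutation p = 0.25). L5-S100b, the other layer 5 subtype with many barcoded neurons, held 9.99% ± 1.79 (SD, n = 3) of the subtyped neurons without sorting and 18.5% in the FAC-sorted library. With all annotated cells as the denominator, the difference for L5-Bcl6 was 2.41 points. A rise on that denominator was not particular to it. L2/3-Calb1 went from a mean of 1.61% of all cells without sorting to 2.25% in the FAC-sorted library. Its share of subtyped neurons went from 4.42% to 2.52%.

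RNA depth was close to that of L5-S100b. The median L5-Bcl6 neuron had 21227 RNA UMIs in mouse 1, 23948.5 in mouse 2, 24226.5 in mouse 3 and 29807 in the FAC-sorted library, where L5-S100b had 22044.5, 23618, 25337 and 32604.5. The log2 ratio of the medians, L5-Bcl6 over L5-S100b, was -0.05, 0.02, -0.06 and -0.13 in these libraries (mean -0.06, exact sign-flip p = 0.25). Detected genes had medians of 5625.5, 5958, 5922.5 and 6628.5, with a mean log2 ratio of -0.03. The mitochondrial share of RNA UMIs had medians of 8.13%, 8.23%, 7.96% and 4.38%, and it was above the L5-S100b median in all 4 libraries, by 0.808, 0.796, 0.507 and 0.451 points (exact sign-flip p = 0.125). The ribosomal protein share was also higher in all 4, by 0.260 to 0.428 points.

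Over the 4 libraries together, the LH barcode was valid in 65 L5-Bcl6 neurons and the DMS barcode in 47. LH calls outnumbered DMS calls in mice 1 and 2, and DMS calls outnumbered LH calls in mouse 3 (10 against 9) and in the FAC-sorted library (25 against 22). The LH count per neuron had a median of 21 UMIs in mouse 1 (range 0 to 245), 27 in mouse 2 (0 to 216), 16.5 in mouse 3 (0 to 254) and 74 in the FAC-sorted library (11 to 357). The barcode was valid in 24 of 90 neurons of mouse 1 (26.7%, interval 17.9 to 37.0), 10 of 60 in mouse 2 (16.7%, 8.29 to 28.5), 9 of 60 in mouse 3 (15%, 7.10 to 26.6) and 22 of 60 in the FAC-sorted library (36.7%, 24.6 to 50.1). The library median lay well below the threshold in every case, so the upper part of a wide distribution carried the calls. Valid neurons, by definition above 103 LH UMIs, had a median of 135.5, 150.5, 169 and 147. The other members of the same libraries had 9, 15, 12 and 42.5, and a gap between these medians follows from the split itself.

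**Figure D1:**
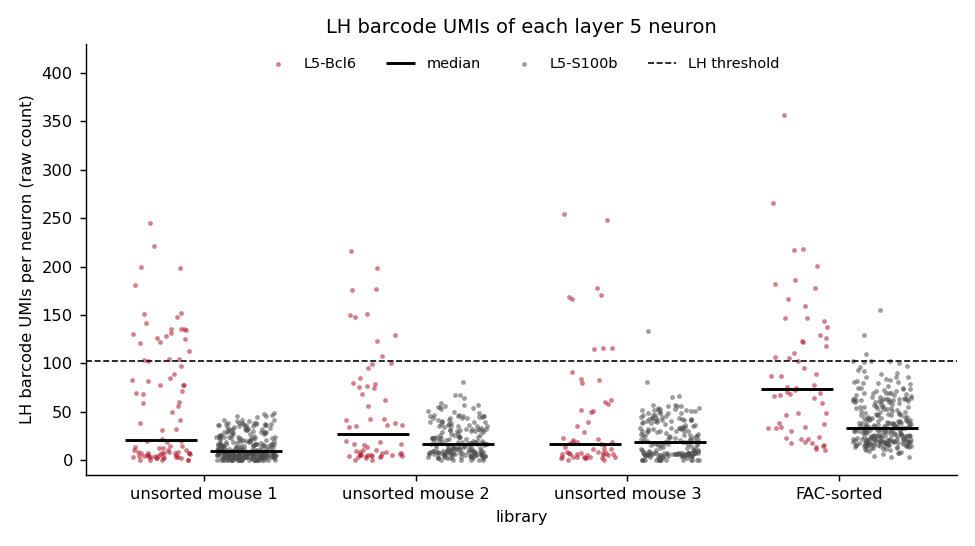
LH barcode UMIs (raw count, vertical axis) of each L5-Bcl6 (red) and L5-S100b (grey) neuron in the 4 libraries, with the median of each set (bar) and the LH threshold (dashed line). L5-Bcl6 neurons reached 216 to 357 UMIs, whereas the unsorted L5-S100b neurons reached 49, 81 and 134 and those of the FAC-sorted library 155.

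In L5-S100b the LH barcode was valid in 0 of 294 neurons of mouse 1, 0 of 191 in mouse 2, 1 of 191 in mouse 3 and 3 of 278 in the FAC-sorted library. A count of 0 allows a share of up to 1.02% in mouse 1 and 1.57% in mouse 2. The LH share of L5-Bcl6 was thus higher in 4 of 4 libraries, by 26.7, 16.7, 14.5 and 35.6 percentage points (mean 23.3, exact sign-flip p = 0.125, 0.156 adjusted over the 5 targets). The low L5-S100b shares depended on the threshold. With thresholds at the upper 1 in 1000 quantile of the non-neuronal cells (39.2 UMIs for LH), they were 3.74%, 18.3%, 24.6% and 41.4%. The L5-Bcl6 shares were then 45.6%, 41.7%, 33.3% and 68.3%. Before any threshold, the gap was less uniform. The log2 ratio of the median LH counts plus 1, L5-Bcl6 over L5-S100b, was 1.07, 0.64, -0.19 and 1.14 (mean 0.66, exact sign-flip p = 0.25), and in mouse 3 the L5-S100b median of 19 UMIs was above that of L5-Bcl6.

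The make-up of the barcode counts, as LH UMIs per DMS UMI, separated the 2 subtypes more evenly. This ratio also takes in the DMS counts, whose medians were lower in L5-Bcl6 in every library. They were 31, 43.5, 37 and 89 UMIs, against 45, 68, 74 and 137 in L5-S100b. Summed over neurons, L5-Bcl6 had 1.40 LH UMIs per DMS UMI in mouse 1, 0.915 in mouse 2, 0.775 in mouse 3 and 0.870 in the FAC-sorted library. In L5-S100b the same ratio was 0.205, 0.215, 0.213 and 0.226. It was 0.230 ± 0.0226 (SD, n = 3 unsorted mice) in L2/3-Calb1, 0.219 ± 0.0165 in L2/3-Rorb, 0.310 ± 0.0692 in L5-Htr2c, 0.578 ± 0.0746 in L6-Syt6 and 0.226 ± 0.0293 in L6-Npy, against 1.03 ± 0.326 in L5-Bcl6. No L5-Bcl6 library overlapped an L5-S100b library in this ratio, and the L5-Bcl6 neurons without a valid LH barcode still had 0.827, 0.622, 0.472 and 0.563 LH UMIs per DMS UMI. L6-Syt6 neurons without a valid LH barcode had 0.528, 0.464, 0.397 and 0.451. LH was the barcode with the most UMIs in 44.4%, 26.7%, 20.0% and 38.3% of L5-Bcl6 neurons, and in 0% to 1.05% of L5-S100b neurons per library.

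The reads behind each UMI followed the same order between L5-Bcl6 and L5-S100b. An LH UMI of L5-Bcl6 neurons was read 45.6, 60.1, 61.3 and 62.7 times on average in the 4 libraries, and one of L5-S100b neurons 2.8, 4.0, 6.4 and 4.2 times. These means rest on a part of the UMIs. The median LH UMI of L5-Bcl6 had 1 read in every library, and 52.3%, 51.8%, 52.9% and 55.1% had a single read. In L5-S100b, 49.5% to 65.6% had a single read. LH took 64.2%, 58.6%, 47.9% and 56.8% of the matched reads of L5-Bcl6 neurons, and 1.2% to 2.0% of those of L5-S100b. A high LH share of reads was not particular to L5-Bcl6. LH took 27.7% to 29.9% in L6-Syt6. In L5-Htr2c, which had no valid LH barcode, it took 45.9%, 43.8%, 30.1% and 25.7%, the last from 4 neurons. The presence of an LH UMI alone did not separate cells, since at least 1 was listed in 94.4% to 100% of L5-Bcl6 neurons, in 90.1% to 100% of L5-S100b neurons and, among non-neuronal cells, which should lack retrograde label, in 20.9% to 31.3% of the unsorted and 86.3% of the FAC-sorted cells. The non-neuronal cells had median RNA depths of 3988, 4074, 4277 and 7417 UMIs, and 3 of 9822 had a valid LH barcode. The paper used non-neuronal cells and EGFP-negative cells of the FAC-sorted library as negative controls, and kept the higher cut-off for each barcode. The upper 1 in 1000 quantile of the non-neuronal cells was 39.2 LH UMIs, below the LH threshold used. Few non-neuronal cells could pass a threshold chosen in this way, and the count of 3 is no independent check of the calls.

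L6-Syt6, a layer 6 subtype, was the only other excitatory subtype with more than 5 LH-projecting neurons in any library. Its LH shares were 2.95%, 3.25%, 3.62% and 16.5% in the 4 libraries, below L5-Bcl6 in 4 of 4 libraries by 23.7, 13.4, 11.4 and 20.2 points (mean 17.2, exact sign-flip p = 0.125). L5-Bcl6 made up 24 of the 66 LH-projecting excitatory neurons of mouse 1 (36.4%, interval 24.9 to 49.1), 10 of 58 in mouse 2 (17.2%, 8.59 to 29.4), 9 of 57 in mouse 3 (15.8%, 7.48 to 27.9) and 22 of 153 in the FAC-sorted library (14.4%, 9.24 to 21.0). Mouse 1 stood above the other libraries in this share. In every library it was larger than the share of L5-Bcl6 among all subtyped neurons given above.

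Within L5-Bcl6, the LH share of the FAC-sorted library was 17.2 points above the unsorted mean (exact one-sided permutation p = 0.25). The gate on EGFP and the greater read depth of that library both move with this difference. When the reads were thinned to a mean of 2542.1 per recovered cell in every library, the LH barcode was valid in 24, 8, 6 and 2 neurons and the difference turned to -13.3 points. That mean is taken over cells of every type, and it left the FAC-sorted L5-Bcl6 neurons shallower (expected median 1632 reads) than those of mouse 1 (2431.5). Thinned instead to the same median of 2431.5 reads per L5-Bcl6 neuron, an alternative chosen after the data were seen, the barcode was valid in 24, 8, 6 and 4 neurons and the difference was -10.0 points. The thresholds were the same in both. With 1 FAC-sorted library, sorting and read depth cannot be told apart.

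**Figure D2:**
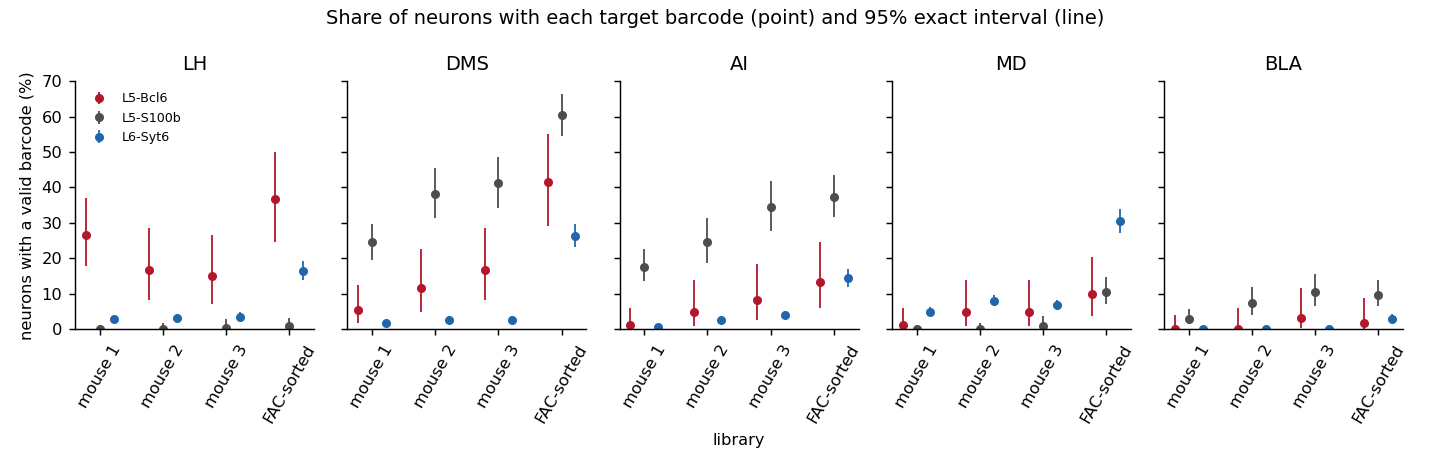
Percentage of neurons with a valid barcode for each target (panels) in the 3 unsorted mice and the FAC-sorted library, for L5-Bcl6 (red), L5-S100b (grey) and L6-Syt6 (blue), with exact 95% intervals. The LH panel shows L5-Bcl6 at 15% to 36.7%, above both other subtypes in all 4 libraries, and the DMS and AI panels show it below L5-S100b in all 4.

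In DMS, the medial part of the dorsal striatum, counts had medians of 31 (range 0 to 171), 43.5 (7 to 205), 37 (3 to 154) and 89 UMIs (11 to 360) in mice 1, 2 and 3 and the FAC-sorted library. The barcode was valid in 5 of 90 neurons (5.56%), 7 of 60 (11.7%), 10 of 60 (16.7%) and 25 of 60 (41.7%). In L5-S100b the shares were 24.5%, 38.2%, 41.4% and 60.4%, higher in 4 of 4 libraries, and the mean difference, L5-Bcl6 minus L5-S100b, was -22.2 points (exact sign-flip p = 0.125, adjusted 0.156). The raw counts lay in the same order, with log2 ratios of medians plus 1 of -0.52, -0.63, -0.98 and -0.62. DMS was the barcode with the most UMIs in 42.2%, 61.7%, 58.3% and 50.0% of L5-Bcl6 neurons, and 119 of these 140 neurons had no valid barcode.

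AI, a cortical target, was valid in 1, 3, 5 and 8 L5-Bcl6 neurons, or 1.11%, 5.00%, 8.33% and 13.3%. L5-S100b had 17.7%, 24.6%, 34.6% and 37.4%, and the mean difference was -21.6 points with the same sign in 4 of 4 libraries (exact sign-flip p = 0.125, adjusted 0.156). An AI UMI of L5-Bcl6 neurons was read 6.0, 2.0, 3.7 and 15.4 times on average, against 32.1 to 36 times in L5-S100b. All 17 neurons with a valid AI barcode also had a valid barcode of another target.

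MD, the thalamic target, was valid in 1, 3, 3 and 6 L5-Bcl6 neurons (1.11%, 5.00%, 5.00% and 10.0%). In L5-S100b it was valid in 0%, 0%, 1.05% and 10.4%, and the difference, L5-Bcl6 minus L5-S100b, was 1.11, 5.00 and 3.95 points in the unsorted mice but -0.432 points in the FAC-sorted library (mean 2.41, exact sign-flip p = 0.25). The intervals were wide, from 0.0281% to 6.04% in mouse 1 and from 3.76% to 20.5% in the FAC-sorted library. Without mouse 2 the mean difference was 1.54 points.

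BLA was valid in 3 L5-Bcl6 neurons, 2 of mouse 3 and 1 of the FAC-sorted library, with 53, 88 and 91 UMIs. Of all other members none had more than 32 BLA UMIs, and the 3 neurons had no other valid target. The counts of 0 in mice 1 and 2 allow shares of up to 3.33% and 5.00%. L5-S100b had 3.06%, 7.33%, 10.5% and 9.71%, a mean difference of -6.39 points (exact sign-flip p = 0.125, adjusted 0.156).

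Over all 5 targets, 27 of 90, 16 of 60, 16 of 60 and 33 of 60 L5-Bcl6 neurons were barcoded (30.0%, 26.7%, 26.7% and 55%). L5-S100b was higher in 4 of 4 libraries, and the mean difference, L5-Bcl6 minus L5-S100b, was -18.0 points (exact sign-flip p = 0.125). Where barcode counts were scaled to RNA depth, with thresholds at the upper 1 in 1000 quantile of the non-neuronal cells, the sign turned and L5-Bcl6 was 12.1 points higher. Barcoded L5-S100b neurons then went from 499 to 127 and L5-Bcl6 neurons from 92 to 71. How much of this came from the scaling and how much from the new thresholds was not tested. Barcoded L5-Bcl6 neurons had a median of 273, 317.5, 356.5 and 372 barcode UMIs and the others 52, 60.5, 51 and 166. This gap follows in part from the call, which needs a high count. Median RNA UMIs of the barcoded neurons were also higher in 4 of 4 libraries. They were 21600, 24007.5, 25067 and 31464, against 21226, 23948.5, 23991 and 28147 in the others.

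The 92 barcoded neurons used 13 of the 31 possible target combinations. LH alone was the most common, with 21, 6, 2 and 6 neurons in mice 1, 2 and 3 and the FAC-sorted library, 35 in all. DMS with LH followed with 17 neurons (1, 2, 3 and 11), DMS alone with 14 (3, 3, 2 and 6) and AI with DMS and LH with 8 (1, 1, 4 and 2). AI with DMS and MD, and MD alone, had 4 neurons each, BLA alone had 3, and AI with DMS, MD and LH had 2. The other 5 combinations (AI with DMS, AI with LH, AI with MD, DMS with MD and LH, MD with LH) were each found in 1 neuron. Mouse 1 was dominated by neurons with LH alone, 21 of its 27 barcoded members, while the FAC-sorted library was led by DMS with LH.

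**Figure D3:**
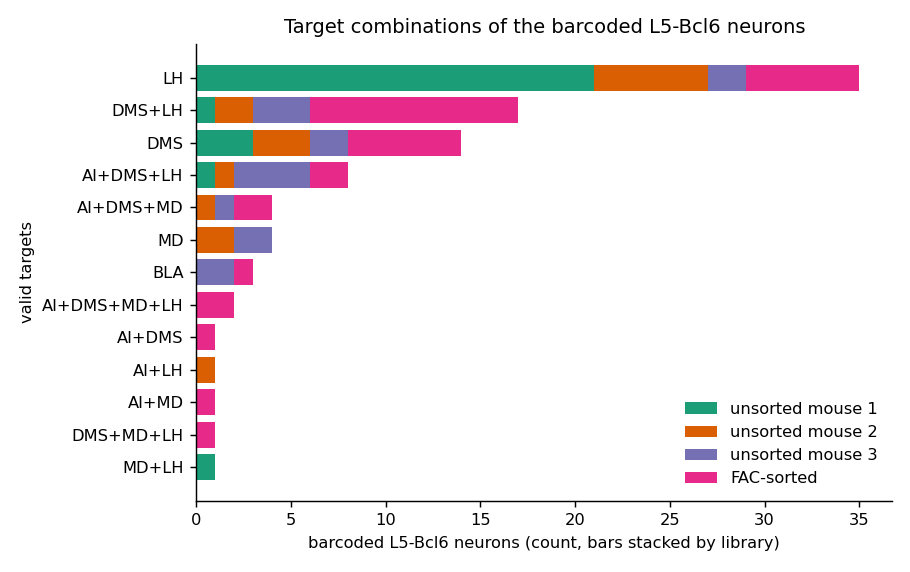
Number of barcoded L5-Bcl6 neurons (horizontal axis) with each combination of valid targets, stacked by library. LH alone (35 neurons) is mostly mouse 1, with 21 neurons, and DMS with LH (17 neurons) is mostly the FAC-sorted library, with 11.

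L5-Bcl6 held 270 of the 8210 subtyped neurons and 92 of the 2050 barcoded ones. Compared with those shares, these combinations were unevenly placed among the subtypes. Of the 176 neurons with LH alone in all subtypes, 35 (19.9%) were L5-Bcl6, 138 were L6-Syt6 and none was L5-S100b. Of the 35 neurons with DMS and LH and no further valid target, 17 (48.6%) were L5-Bcl6 and 18 were L6-Syt6. With further targets allowed, L5-Bcl6 made up 22.4% of all neurons in which both barcodes were valid. That share was 100% in mouse 1 (2 neurons), 37.5% in mouse 2, 53.8% in mouse 3 and 15.7% in the FAC-sorted library. Conversely, L5-Bcl6 held 1 of the 306 neurons with AI and DMS and no further valid target, the combination of 137 L5-S100b neurons. Its 14 of the 594 neurons with DMS alone (2.4%) lay closer to its shares of all subtyped and barcoded neurons.

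Neurons with more than 1 valid target, termed collateral, made up 3 of 27 barcoded L5-Bcl6 neurons in mouse 1 (11.1%, interval 2.35 to 29.2), 5 of 16 in mouse 2 (31.2%, 11 to 58.7), 8 of 16 in mouse 3 (50.0%, 24.7 to 75.3) and 20 of 33 in the FAC-sorted library (60.6%, 42.1 to 77.1). In L5-S100b the shares were 23.4%, 41.9%, 46.7% and 47.9%. The differences went both ways, at -12.3, -10.7, 3.27 and 12.7 points (mean -1.74, exact sign-flip p = 1). The order of the libraries was the same in the 2 subtypes, and it was also their order in projectome reads per recovered cell of any type. It was not their order in the median reads of L5-Bcl6 neurons, which were 2431.5, 3751.5, 3422.5 and 9399.

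Within L5-Bcl6, DMS was more often valid in neurons with a valid LH barcode than in the others. It was valid in 2 of 24 LH-projecting neurons of mouse 1 (8.33%), 3 of 10 in mouse 2 (30.0%), 7 of 9 in mouse 3 (77.8%) and 16 of 22 in the FAC-sorted library (72.7%). Among members without a valid LH barcode the shares were 4.55%, 8.00%, 5.88% and 23.7%. The difference was positive in 4 of 4 libraries, at 3.79, 22, 71.9 and 49.0 points (mean 36.7, exact sign-flip p = 0.125). In these 28 neurons with both barcodes, LH had more UMIs than DMS in 22, with medians of 168 LH and 124.5 DMS UMIs. The pattern was not particular to DMS. AI was valid in 4.17% of LH-projecting against 0% of other members in mouse 1, and in 20.0% against 2.00% in mouse 2. MD went both ways, at 4.17% against 0% and 0% against 6.00%. LH-projecting members also had median barcode totals of 274, 330.5, 412 and 401 UMIs, and members with no valid barcode 52, 60.5, 51 and 166. How much of the DMS difference goes with these totals was not tested.

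**Figure D4:**
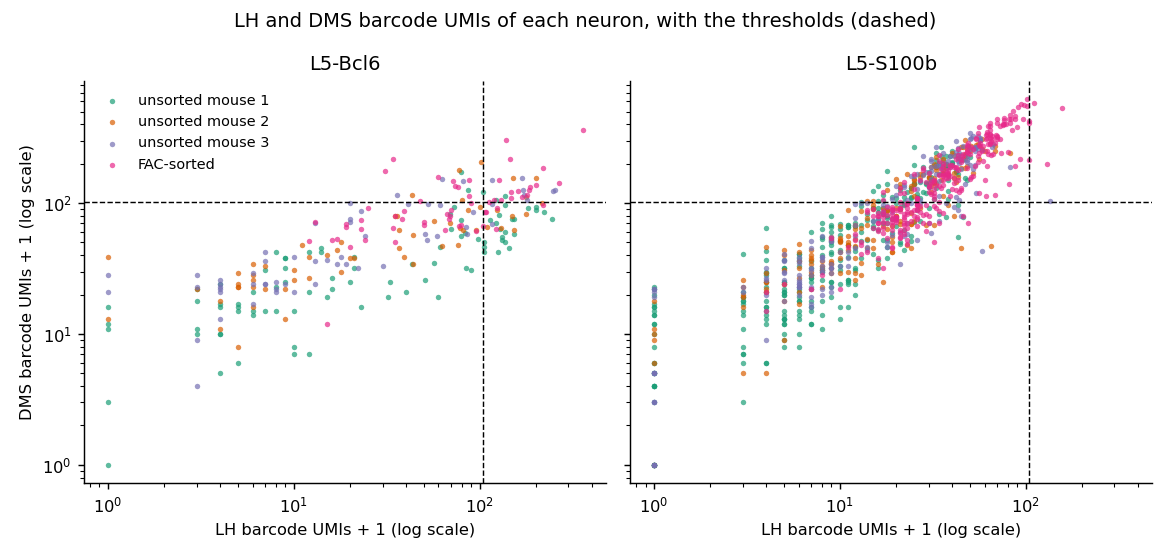
DMS against LH barcode UMIs plus 1 (log axes) of each neuron of L5-Bcl6 (left) and L5-S100b (right), coloured by library, with the thresholds as dashed lines. L5-S100b neurons lie along 1 diagonal with 0.205 to 0.226 LH UMIs per DMS UMI per library, and 65 L5-Bcl6 neurons lie to the right of the LH threshold, 28 of them also above the DMS threshold.

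How UMIs found with 2 barcodes were counted bore directly on this overlap. A barcode UMI is meant to mark 1 molecule, but in LH-projecting L5-Bcl6 neurons 59.9%, 53.1%, 50.6% and 29.6% of the DMS UMIs in the 4 libraries were also read with the LH barcode in the same cell. Of these shared UMIs, 87.0%, 88.0%, 82.8% and 75.0% had more reads with LH than with DMS. In the members without a valid LH barcode, 25.9%, 22.4%, 20.1% and 14.9% of the DMS UMIs were shared with LH. This gap follows in part from the split, since a UMI shared with LH also counts towards the LH total. In L5-S100b the direction was the opposite one: 57.1% to 75.9% of its LH UMIs were shared with DMS, and 91.2% to 94.0% of those had more reads with DMS.

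In an alternative count, each shared UMI was counted only for the barcode with more reads, and for none where the reads were tied. The LH calls of L5-Bcl6 then went from 24, 10, 9 and 22 neurons to 20, 10, 8 and 19. The DMS calls went from 5, 7, 10 and 25 to 2, 4, 4 and 11, and the neurons with both from 2, 3, 7 and 16 to 0, 1, 1 and 4. The mean difference in the DMS share between LH-projecting and other members then went from 36.7 to 2.96 points (exact sign-flip p = 0.25), and collateral neurons went from 36 of 92 to 9 of 80 barcoded members. AI calls went from 17 to 2, MD calls from 13 to 7, and the 3 BLA calls stayed at 3. The fall was not particular to L5-Bcl6. In L5-S100b, collateral neurons went from 206 of 499 to 79 of 484 barcoded neurons, AI calls from 269 to 142 and MD calls from 31 to 3. The difference in LH share from L5-S100b was 20.8 points under this rule. The thresholds were kept while the counts became smaller, and how much of the change is due to that was not tested.

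**Figure D5:**
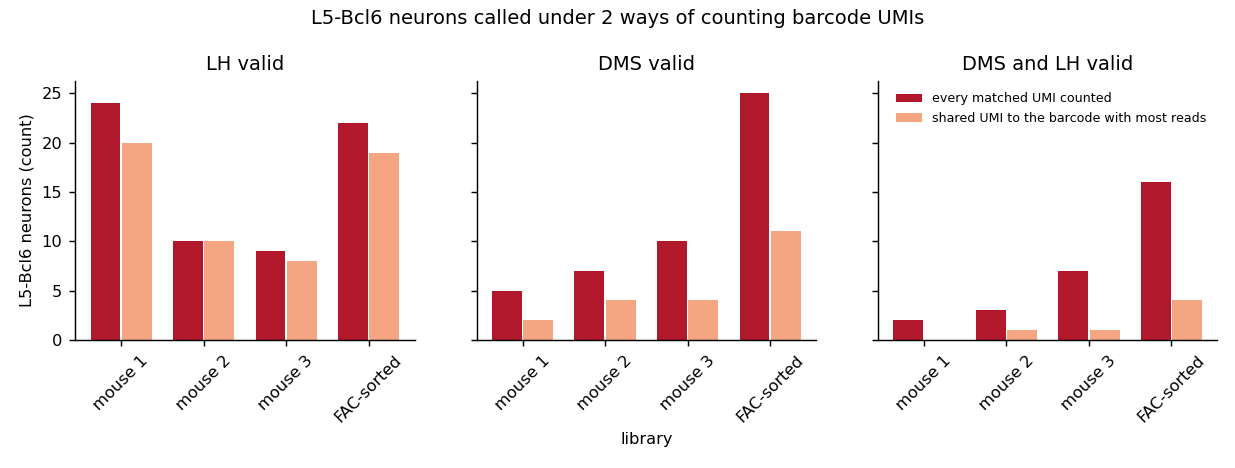
Number of L5-Bcl6 neurons per library with a valid LH barcode, a valid DMS barcode or both, when every matched UMI was counted (dark) and when a UMI shared by several barcodes of a cell was given to the one with most reads (light). Shared UMIs with tied reads were counted for no barcode in the light bars. LH calls change from 65 to 57 in all, and neurons with both barcodes from 28 to 6.

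LH-projecting L5-Bcl6 and L6-Syt6 neurons were also compared by their further targets, a comparison chosen after the values were seen. DMS was valid in 0%, 9.09%, 10.6% and 63.1% of LH-projecting L6-Syt6 neurons, below L5-Bcl6 in 4 of 4 libraries by 8.33, 20.9, 67.1 and 9.61 points (mean 26.5, exact sign-flip p = 0.125). Without mouse 3 the mean was 13.0 points, and with barcode counts per 10000 RNA UMIs, where thresholds were also set anew and 1 of 270 L5-Bcl6 neurons was DMS valid, it was -0.511. With each shared UMI counted only for the barcode with more reads, DMS was valid in 0%, 10.0%, 12.5% and 21.1% of LH-projecting L5-Bcl6 neurons. The L6-Syt6 shares under that rule are not given here. MD went the other way. It was valid in 4.17%, 0%, 0% and 13.6% of LH-projecting L5-Bcl6 neurons and in 7.14%, 15.9%, 23.4% and 44.3% of those of L6-Syt6, a mean difference of -18.2 points (exact sign-flip p = 0.125). No LH-projecting L5-Bcl6 neuron had a valid BLA barcode, and 0 of 65 allows a share of up to 4.62%. BLA was valid in 1.11% of all 270 members, so this count lies near the share of the whole subtype.

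Many calls lay close to their threshold. Of the 65 LH-projecting L5-Bcl6 neurons, 40 had at most 1.5 times the threshold, and 35 other members lay within the same factor below it. The lowest valid LH counts were 104, 105 and 105 UMIs and the highest others 103, 103 and 100. For DMS, 33 of 47 valid neurons and 53 others lay within that factor, for AI 12 of 17 and 42, and for MD 10 of 13 and 23. With thresholds 1.5 times as high, the LH share of L5-Bcl6 was 9.63 points above L5-S100b, and when only UMIs with at least 2 reads were counted it was 3.75 points above. Under that read rule, 10 L5-Bcl6 neurons were LH valid and 4 were DMS valid. Barcoded L5-Bcl6 neurons went from 92 to 16 and barcoded L5-S100b neurons from 499 to 256.

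The upper end of the distribution was bounded as well. Within each library, the 5% of cells with the highest barcode totals are not in the deposited annotation, above limits of 403.9, 486.2, 529.3 and 1012.3 UMIs, and the highest L5-Bcl6 totals were 395, 482, 523 and 925. Collateral L5-Bcl6 neurons had median totals of 359, 429, 415 and 414 UMIs. These cells, 403, 372, 362 and 104 in number, included 202, 221, 233 and 103 with an LH count above the threshold. Their subtypes were not analysed here.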

How the data were processed

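Single-cell transcriptome (10x Genomics) and projectome libraries of 3 unsorted mice and 1 pool of 3 FAC-sorted mice were analysed. The authors aligned the transcriptome with Cell Ranger to mm10, kept cells by detected genes, RNA UMIs and mitochondrial percent, clustered them and named the subtypes. The deposited tables hold, without normalization, raw counts of barcode UMIs per cell (reads matched to 15-base barcodes with up to 2 mismatches), counts of RNA UMIs and genes, and the mitochondrial and ribosomal percent of RNA UMIs. The authors removed the 5% of cells with the highest barcode totals and set counts at or below each threshold to 0. No doublet caller was run here; leaving out the deepest neurons was an alternative.

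Thresholds were read from the deposited joined matrix as the largest count set to 0, and labels from the annotation; 19 columns of the series' tables were not used. The deposited reads were recounted: of 1350 counts of L5-Bcl6 neurons, 1310 were identical and 40 were a single UMI listed as 0. Shares, medians and exact tests were computed per library in Python 3.11.15 with pandas 2.3.3 and scipy 1.17.1, with p adjusted over the 5 targets by Benjamini-Hochberg, and checked on simulated data. The FAC-sorted library, 1 sample, carries no replicate error, and depth was 2542.1 to 14638.6 projectome reads per recovered cell.

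L5-Bcl6, its comparison subtypes and the tests were chosen with earlier results of these data known. Named are all 5 targets, all 7 excitatory subtypes as comparison, every target combination of L5-Bcl6, and Bcl6. Alternatives changed thresholds, matching, UMI support and sharing, read depth, RNA depth, scaling and the libraries included.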

Additional observations from a re-analysis of the deposited data

Results flagged for a closer look

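The MD share, L5-Bcl6 minus L5-S100b, was above 0 in each of the 3 unsorted mice (1.11, 5.00 and 3.95 percentage points) and was -0.432 points in the FAC-sorted library, which is what drew attention to it. It rests on 1, 3, 3 and 6 L5-Bcl6 neurons with a valid MD barcode, and the difference between sorted and unsorted libraries was not tested.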

How the results depend on the processing

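Of 248 values recomputed under the alternatives, 231 kept the direction reported and 17 had the opposite one; no test could pass 0.05 under any of them. The collateral share, L5-Bcl6 minus L5-S100b, had the opposite sign with thresholds 0.5 times as high (9.56 points), barcode UMIs per 10000 RNA UMIs (0.558), exact matches (0.382), UMIs with at least 2 reads (5.14), reads thinned to equal means per recovered cell (3.18) or equal medians per L5-Bcl6 neuron (1.43) and neurons above the 90th percentile of RNA UMIs left out (4.44), and ranged from -6.56 to 1.76 as each library was left out. Only 2 L5-Bcl6 neurons were collateral when UMIs with at least 2 reads were counted. Per 10000 RNA UMIs, with thresholds set anew on non-neuronal cells and 1 of 270 L5-Bcl6 neurons DMS valid, the barcoded share turned to 12.1 points and the DMS share of LH-projecting neurons, L5-Bcl6 minus L6-Syt6, to -0.511. With thresholds at the upper 1 in 100 quantile of non-neuronal cells, the MD share turned to -1.42 points and the MD share of LH-projecting neurons, against L6-Syt6, to 2.28. With reads thinned, the FAC-sorted minus unsorted LH share turned to -13.3 (equal means, which left FAC-sorted L5-Bcl6 neurons shallower) and -10.0 (equal medians, chosen after the data were seen). In neurons with no valid barcode, the log2 ratios of RNA UMIs and genes were 0.064 and 0.010. The cause was not tested.

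The LH share, L5-Bcl6 minus L5-S100b, stayed positive in all 13 alternatives of the processing, from 0.771 points (the 1 in 100 quantile) to 31.7 (thresholds 0.5 times as high), and from 19.3 to 26.3 as libraries were left out. The difference in DMS share between LH-projecting and other members ranged up to 65.1 points; its lowest value, 0.962, rests on that 1 DMS-valid neuron. Read depth, 60 to 90 neurons a library and 1 FAC-sorted library limit every share. Subtypes were compared within libraries. Between sorted and unsorted mice, no paired analysis was possible because they were different animals and the sorted ones were pooled in 1 library.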
